A study of Homo sapiens with 12 samples.

Results

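The 10 glutathione transferase genes described here are GSTM2, GSTM3, GSTM4, GSTP1, GSTO1, GSTK1, GSTA4, MGST1, MGST2 and MGST3. They were chosen by name as rows of a count table of 23398 gene entries, and all 10 passed the filter on low counts that left 14319 genes for testing. The counts come from RNA-seq of human brain microvascular endothelial cells (HBMEC), which form the inner wall of the brain's capillaries and were bought from a supplier of cultured cells. They received either siGlut1, an siRNA against SLC2A1, or a non-silencing siRNA, for 48 h in every group, and were kept in high or control glucose.

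The 4 groups were siGlut1 in high glucose (3 libraries), non-silencing siRNA in high glucose (2 libraries), siGlut1 in control glucose (3 libraries) and non-silencing siRNA in control glucose (3 libraries). The labels list 12 samples. Replicate 2 of the non-silencing siRNA group in high glucose was left out, because its counts are the mean of replicates 1 and 3 in 23397 of 23398 entries. The glucose concentrations, the number of siRNAs against SLC2A1, the number of donors and whether replicates are separate cultures are not given in the labels. P-values therefore measure the spread between these libraries, which may be technical. A knockdown in culture also leaves cells without the flow, pericytes and astrocytes of the vessel.

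Glutathione transferases join the thiol of glutathione to reactive molecules, such as products of lipid oxidation, which makes them more soluble and easier to export. The soluble enzymes fall into classes named mu, pi, omega, alpha and others, the kappa enzyme works in mitochondria and peroxisomes, and the MGST proteins form a separate family of membrane enzymes. Several of these genes are known targets of NRF2, a transcription factor that binds antioxidant response elements when its inhibitor KEAP1 is modified by oxidants. In the brain, endothelial cells carry out this chemistry at the blood-brain barrier.

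Library totals ran from 40135082 to 90536476 counts, with a median of 49686182. SLC2A1, the gene targeted by siGlut1, which encodes the glucose transporter of the blood-brain barrier, had 7.09, 7.20 and 6.38 CPM (counts scaled to the TMM-adjusted library total) with siGlut1 in high glucose, against 21.2 and 20.7 CPM with non-silencing siRNA. With control glucose the values were 8.56, 9.05 and 6.26 CPM with siGlut1, against 25.7, 23.7 and 22.2 CPM with non-silencing siRNA. Its log2 fold change was -1.61 ± 0.140 (SE) in high glucose (adjusted p = 0.000901) and -1.58 ± 0.129 in control glucose (adjusted p = 0.000897, edgeR quasi-likelihood test with Benjamini-Hochberg adjustment, as for every adjusted p that follows unless another tool is named). All 10 endothelial markers checked, among them PECAM1, CDH5 and CLDN5, were present.

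Promoter sequences of 3 members are shown because they set a pair of genes that fell with siGlut1, GSTM4 and GSTO1, beside GSTP1, the member with the highest level. Each window runs from 250 bases before to 50 bases after the gene's start, 5′ to 3′ on the gene's strand, taken from RefSeq on GRCh38.p14. Capitals mark TGACNNNGC, the core of an antioxidant response element, which was searched for on both strands.
GSTM4 (chr1:109655849-109656148, plus strand): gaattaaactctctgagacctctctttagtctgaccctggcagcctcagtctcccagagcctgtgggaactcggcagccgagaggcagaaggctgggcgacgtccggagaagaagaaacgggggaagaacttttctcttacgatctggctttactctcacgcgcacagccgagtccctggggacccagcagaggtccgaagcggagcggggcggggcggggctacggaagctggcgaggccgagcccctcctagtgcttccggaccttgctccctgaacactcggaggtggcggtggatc
GSTO1 (chr10:104254642-104254941, plus strand): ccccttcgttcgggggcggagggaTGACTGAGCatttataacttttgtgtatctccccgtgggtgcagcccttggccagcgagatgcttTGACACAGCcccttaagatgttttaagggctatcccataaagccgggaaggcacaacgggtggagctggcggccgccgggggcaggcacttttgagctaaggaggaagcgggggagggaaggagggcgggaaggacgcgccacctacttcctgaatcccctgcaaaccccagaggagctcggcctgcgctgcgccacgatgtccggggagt
GSTP1 (chr11:67583562-67583861, plus strand): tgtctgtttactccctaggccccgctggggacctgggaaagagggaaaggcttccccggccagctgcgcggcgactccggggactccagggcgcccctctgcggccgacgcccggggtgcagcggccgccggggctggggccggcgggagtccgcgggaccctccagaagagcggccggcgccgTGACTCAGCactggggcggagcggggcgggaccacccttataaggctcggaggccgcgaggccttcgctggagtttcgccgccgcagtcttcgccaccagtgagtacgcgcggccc
The GSTO1 window held the core at positions -226 and -161 from the start, and the GSTP1 window held it at -66. GSTM4 had no match in its window. Matches also stood in the window of GSTA4 at -9 and in 1 of 3 windows of MGST1, 30 bases after the start, while the windows of GSTM2, GSTM3, GSTK1 and MGST3 had none. RefSeq windows were found for 9 of the 10 members, and MGST2 was not among them. Of all 35116 promoter windows of this length, 13.3% held the motif, so a match describes the letters of a window and was not tested as a binding site.

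Levels per gene length, as RPKM deposited by the authors, spread the 10 members over more than 2 orders of magnitude, and the pi-class gene GSTP1 stood at the top. GSTP1, a broad-acting cytosolic enzyme, averaged 377 RPKM over the 11 libraries (343 to 431), which was above 99% of the genes tested and 49.5% of the sum of the members. GSTO1, the omega-class enzyme that reduces dehydroascorbate and arsenic compounds, averaged 129 RPKM (108 to 148), and the membrane enzyme MGST1 averaged 94.1 RPKM (85.7 to 107). GSTK1, the kappa-class enzyme, averaged 65.7 RPKM (53.3 to 76.0).

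Below these stood MGST3 at 41.2 RPKM (35.4 to 47.4), then GSTA4, an alpha-class enzyme with high activity on the lipid oxidation product 4-hydroxynonenal, at 23.3 RPKM (20.4 to 24.9). MGST2, a membrane enzyme that can also make leukotrienes, averaged 21.9 RPKM (16.1 to 30.7). The 3 mu-class genes were lowest, with GSTM3 at 5.41 RPKM (4.5 to 6.79), GSTM4 at 1.84 RPKM (0.878 to 2.90) and GSTM2 at 1.67 RPKM (1.07 to 2.31). Neighbours in this order had ranges that did not overlap, except GSTA4 with MGST2 and GSTM4 with GSTM2. The mu-class genes GSTM4 and GSTM2 rested on 86 to 366 and 132 to 306 counts per library, so their values carry more counting error than those of GSTP1, which had 15526 to 34580 counts. All counts in the 11 columns are even, and the labels do not say what 1 count stands for. If both mates of a read pair were counted, each count stands for fewer fragments than printed and the counting error is larger.

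**Figure D1:**
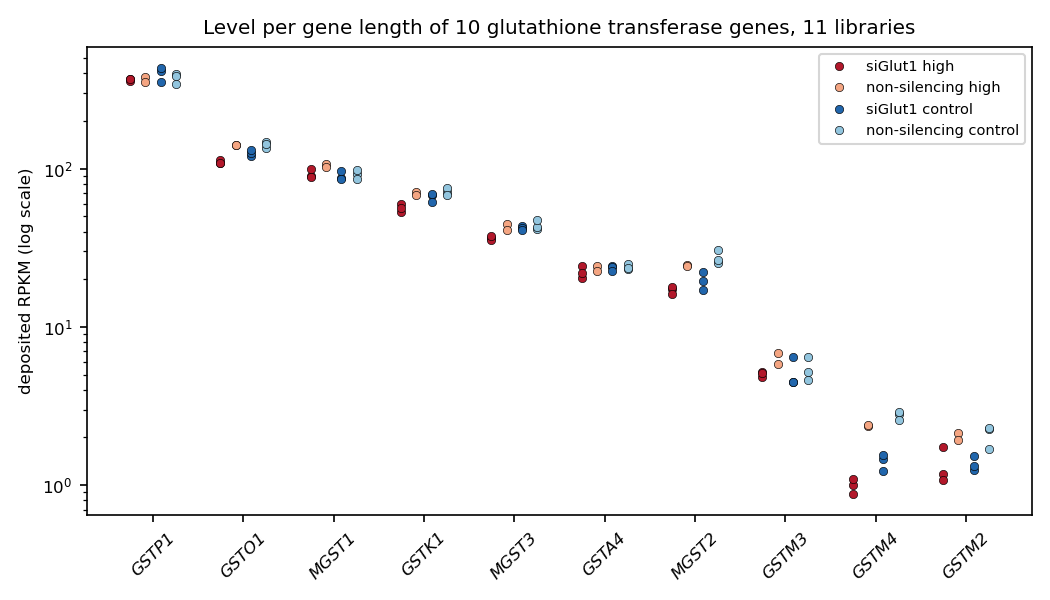
Deposited RPKM (log scale) of the 10 members, ordered by their mean over 11 libraries, with 1 point per library and colours for the 4 groups. GSTP1 averaged 377 RPKM and GSTM2 averaged 1.67 RPKM, and the siGlut1 points of GSTM4 lie below its non-silencing points in both media.

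The mu-class genes lie close together on chromosome 1. In hg19, GSTM4 spans chr1:110198698-110208123, GSTM2 spans chr1:110210644-110226619 with 2520 bases between them, and GSTM3 spans chr1:110276554-110283660. Because related genes can share reads, every 50-base window of the members' protein-coding transcripts in GENCODE v29 was looked up. The search covered both strands of every transcript of other genes, coding or not. For GSTM2, 37.8% of windows were also found in another mu-class gene, and for GSTM4 16.8%. GSTM3 shared 0% with other mu-class genes, and GSTP1, GSTK1, GSTA4, MGST1 and MGST2 shared 0% with any gene. With other genes of any kind, GSTM3 shared 5.67%, GSTO1 2.1% and MGST3 0.186%. With 100-base windows the shares were 30.9% for GSTM2 and 7.73% for GSTM4. The labels do not say how reads that match more than 1 gene were counted, so the values of GSTM2, and less so of GSTM4, are uncertain as to which gene their reads came from.

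The first question of the design was how these genes differed between siGlut1 and non-silencing siRNA. Lower SLC2A1 and other effects of the siRNA cannot be told apart in these groups. In high glucose, GSTM4, MGST2 and GSTO1 fell with siGlut1, to between 0.424 and 0.789 of the non-silencing level, and no member rose. In control glucose, GSTM4 and MGST2 fell. Averaged over both media, which uses all 11 libraries, the genes that fell were GSTM4, MGST2, GSTO1 and GSTM2, and the most abundant member, GSTP1, was not called in any of these comparisons. In bulk RNA, a lower level per cell and fewer cells of a kind that expresses the gene cannot be told apart.

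Of the 10 members, 3 were called lower in high glucose, where 1.65% of all genes tested were called lower, and 0 were called higher, against 2.47% of all genes. In control glucose 2 of 10 were called lower, against 1.26% of all genes, and 0 higher, against 1.7%. Averaged over media, 4 of 10 were called lower, against 6.49% of all genes, and 0 higher, against 7.93%. The members' median log2 fold change was -0.29 in high glucose, -0.08 in control glucose and -0.18 averaged, beside medians of 0.00, -0.01 and 0.00 for all genes tested. Over all genes, log2 fold change ran with gene length in high glucose (Spearman's rho 0.238 across genes) and hardly in control glucose (-0.0601), and 9 of the 10 members, at 958 to 2018 bases, were shorter than the tested median of 3031 bases. With each library's length trend removed, 1 member, GSTM4, was called in high glucose.

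Counting instead the genes whose siGlut1 libraries all lay below all non-silencing libraries gave 8 of 10 members in high glucose, every one but GSTP1 and GSTA4, where 22% of all genes did so. In control glucose 4 members did so, GSTM2, GSTM4, GSTO1 and MGST2, against 9.6% of all genes. Over both media together, GSTM4, GSTO1 and MGST2 did so, that is 3 members, against 3.86% of all genes. High glucose has only 2 non-silencing libraries, so separation there is easier to reach than in control glucose.

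**Figure D2:**
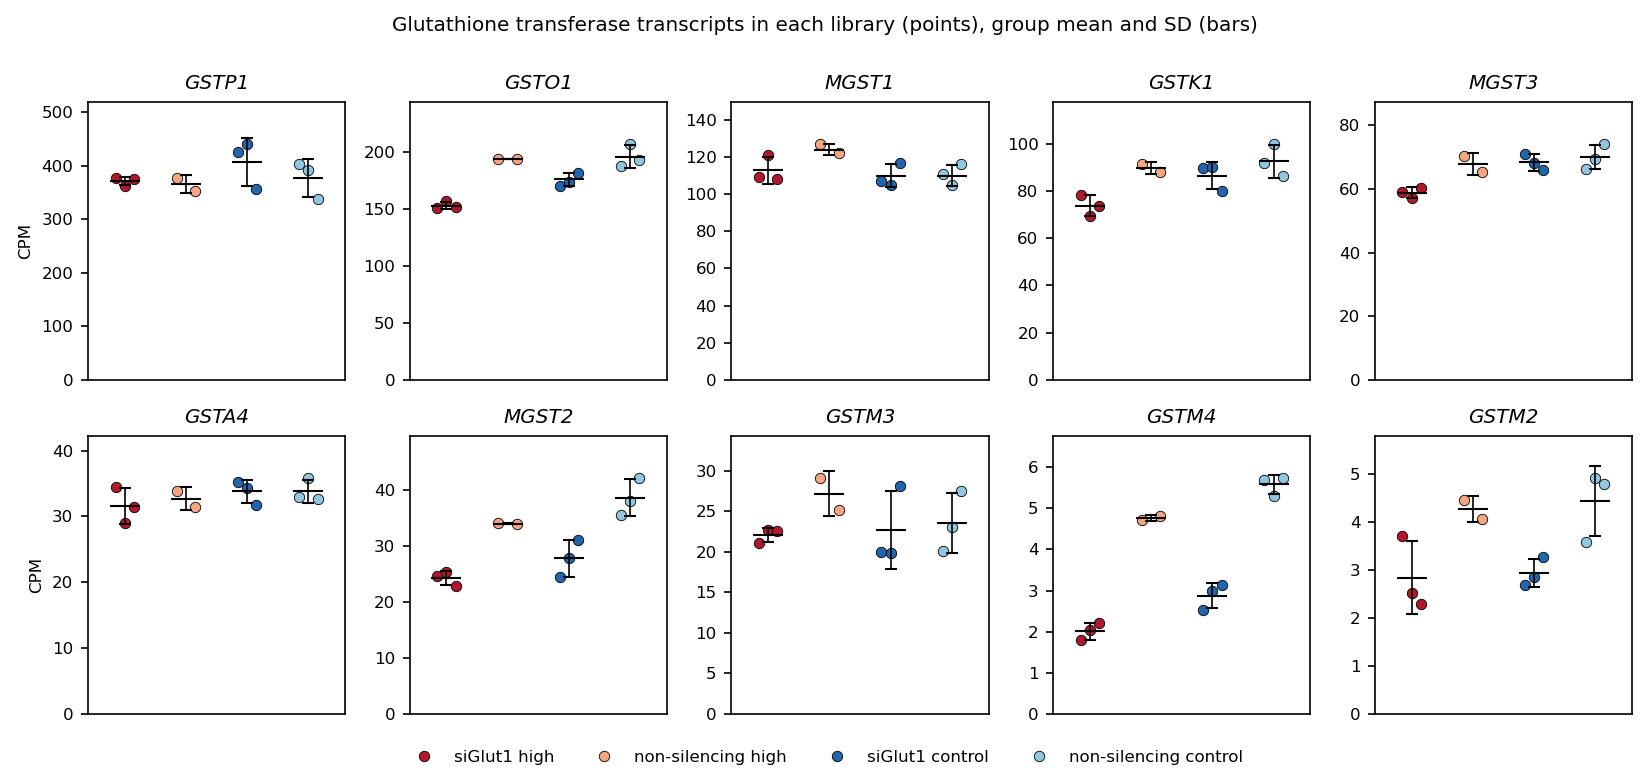
CPM (TMM-scaled) of each member in each library, with horizontal bars for the group mean and vertical bars for the SD (n = 3, but n = 2 where non-silencing siRNA met high glucose), each axis starting at 0. GSTM4, GSTO1 and MGST2 have all siGlut1 libraries below all non-silencing libraries, while the groups of GSTP1 overlap in both media.

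GSTM4, a mu-class enzyme whose activity on standard test substrates is low, changed most. It had 1.79, 2.03 and 2.22 CPM with siGlut1 in high glucose, against 4.71 and 4.82 CPM with non-silencing siRNA. In control glucose it had 2.53, 2.98 and 3.13 CPM with siGlut1, against 5.69, 5.31 and 5.73 CPM with non-silencing siRNA. All 6 siGlut1 libraries were therefore below all 5 non-silencing libraries, with no overlap in either medium.

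Its log2 fold change was -1.24 ± 0.149 in high glucose (adjusted p = 0.00289), -0.95 ± 0.134 in control glucose (adjusted p = 0.00658) and -1.09 ± 0.1 averaged (adjusted p = 0.000134). That is 0.424, 0.517 and 0.468 of the non-silencing level. The call in high glucose was lost without replicate 3 of the non-silencing libraries (log2 fold change -1.22, adjusted p = 0.0581), and the calls in control glucose and averaged held in every alternative run.

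GSTM2, its neighbour and an active mu-class enzyme, had 3.71, 2.51 and 2.30 CPM with siGlut1 in high glucose, against 4.46 and 4.07 CPM with non-silencing siRNA. The control-glucose values were 2.69, 2.86 and 3.26 CPM with siGlut1, against 3.59, 4.91 and 4.79 CPM with non-silencing siRNA. Within each medium the siGlut1 libraries were lower without overlap, but siGlut1 replicate 1 in high glucose exceeded non-silencing replicate 1 in control glucose.

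The log2 fold change of GSTM2 was -0.59 ± 0.146 averaged over media (adjusted p = 0.0201), with near-identical values in both media that did not pass the test (adjusted p = 0.149 in high glucose and 0.133 in control glucose). Leaving out 1 of 5 libraries ended the averaged call, with adjusted p = 0.0854 and 0.0554 without non-silencing replicates 1 and 3 in high glucose, 0.0522 and 0.0511 without siGlut1 replicates 2 and 3 in high glucose, and 0.0506 without siGlut1 replicate 1 in control glucose.

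GSTM3, the mu-class gene with the most distinct sequence, had 21.1, 22.7 and 22.6 CPM with siGlut1 in high glucose, against 29.1 and 25.2 CPM with non-silencing siRNA. In control glucose it had 20.0, 19.9 and 28.2 CPM with siGlut1, against 20.1, 23.1 and 27.5 CPM with non-silencing siRNA, so the groups overlapped there. Its log2 fold change averaged over media was -0.18 (95% interval -0.418 to 0.0626, adjusted p = 0.311). Replicate 3 of both siRNAs was the highest library of its group in control glucose.

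With GSTM2, GSTM3 and GSTM4 summed to 1 entry, which removes any exchange of reads among them, the log2 fold change was -0.33 ± 0.0951 averaged over media (adjusted p = 0.0386). It was -0.43 ± 0.141 in high glucose (adjusted p = 0.116) and -0.24 ± 0.127 in control glucose (adjusted p = 0.375). Most counts in that sum belong to GSTM3, the member of the 3 with the smallest change. The sum does not remove sharing with mu-class genes outside these 3. For GSTM2, 28.8% of 50-base windows were also found in GSTM1, against 12.6% in other members. For GSTM4, 8.69% were found in another member, where 16.8% were found in any other mu-class gene. What reads from such genes added to the counts was not tested.

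GSTO1, the omega-class enzyme, had 151, 157 and 152 CPM with siGlut1 in high glucose, against 194 and 194 CPM with non-silencing siRNA. Control glucose gave 170, 174 and 182 CPM with siGlut1, against 188, 207 and 193 CPM with non-silencing siRNA. All 6 siGlut1 libraries were below all 5 non-silencing libraries, by a narrow margin in control glucose.

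The log2 fold change of GSTO1 was -0.34 ± 0.0668 in high glucose (adjusted p = 0.0214), -0.16 ± 0.0602 in control glucose (adjusted p = 0.185) and -0.25 ± 0.0450 averaged (adjusted p = 0.0045). The averaged value is 0.841 of the non-silencing level and held in every alternative run. The call in high glucose ended when any 1 of the 5 high-glucose libraries was left out (adjusted p = 0.0621 to 0.161) or when each library's trend with gene length was removed (log2 fold change -0.26, adjusted p = 0.0647).

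MGST2, the leukotriene-making membrane enzyme, had 24.6, 25.4 and 22.8 CPM with siGlut1 in high glucose, against 34.1 and 34.0 CPM with non-silencing siRNA. In control glucose, values of MGST2 were 24.5, 27.9 and 31.1 CPM with siGlut1, against 35.5, 38.0 and 42.1 CPM with non-silencing siRNA. No siGlut1 library reached any non-silencing library.

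Its log2 fold change was of like size in both media, -0.49 ± 0.108 in high glucose (adjusted p = 0.0323) and -0.47 ± 0.0977 in control glucose (adjusted p = 0.0287), and -0.48 ± 0.0729 averaged (adjusted p = 0.00196), or 0.717 of the non-silencing level. The averaged call held in every alternative run. In high glucose the call ended without any 1 of the 5 libraries (adjusted p = 0.0735 to 0.188) or with the length trend removed (-0.40, adjusted p = 0.0532), and in control glucose without any 1 of the 6 but siGlut1 replicate 3 (adjusted p = 0.0513 to 0.0989) or with only those 6 libraries fitted (adjusted p = 0.135).

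The MGST2 entry, chr4:140586922-140661899 in hg19, overlaps that of MAML3, a Notch coactivator. The labels do not say whether counting used strand, so MAML3 was checked. It ran from 40.4 to 56.5 CPM over the 11 libraries, and its log2 fold change was -0.02 ± 0.0828 averaged over media (adjusted p = 0.904). In GENCODE v29, MGST2 transcripts shared 0% of 50-base windows with any other gene's transcripts on either strand. What MAML3 reads added to the MGST2 count was not tested. No other member's entry overlapped another gene's in the table.

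The other 2 membrane enzymes moved less. MGST1, which protects membranes against lipid peroxides, had 109, 121 and 108 CPM with siGlut1 in high glucose, against 127 and 122 CPM with non-silencing siRNA, and 107, 105 and 117 CPM with siGlut1 in control glucose, against 111, 105 and 116 CPM. Its averaged log2 fold change was -0.07 (95% interval -0.192 to 0.0429, adjusted p = 0.389). The groups overlapped in control glucose and were separate by a narrow margin in high glucose.

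MGST3 had 59.1, 57.0 and 60.3 CPM with siGlut1 in high glucose, against 70.2 and 65.4 CPM with non-silencing siRNA, and 70.9, 68.0 and 65.9 CPM with siGlut1 in control glucose, against 66.4, 69.4 and 74.1 CPM. The averaged log2 fold change was -0.12 (95% interval -0.229 to -0.0118, adjusted p = 0.129). Its siGlut1 libraries were the lowest of all in high glucose and overlapped the non-silencing libraries in control glucose.

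GSTK1, the kappa-class enzyme of mitochondria and peroxisomes, had 78.3, 69.4 and 73.4 CPM with siGlut1 in high glucose, against 91.4 and 87.8 CPM with non-silencing siRNA. In control glucose it had 89.6, 89.9 and 79.8 CPM with siGlut1, against 91.6, 99.8 and 86.1 CPM with non-silencing siRNA, where the groups overlapped. The averaged log2 fold change was -0.19 ± 0.0587 (adjusted p = 0.0524), just outside the threshold of 0.05, and the replicate block gave -0.20 (adjusted p = 0.043) and DESeq2 an adjusted p of 0.0276. It lies close enough to the threshold that the choice of fit decides the call.

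GSTP1 and GSTA4 had the values nearest to 0 or above it. GSTP1 had 377, 363 and 376 CPM with siGlut1 in high glucose, against 378 and 354 CPM with non-silencing siRNA, and 427, 441 and 357 CPM with siGlut1 in control glucose, against 404, 393 and 338 CPM. Its averaged log2 fold change was 0.07 (95% interval -0.0814 to 0.215, adjusted p = 0.554), so a fall of the size seen in GSTO1, -0.25, lies outside the interval. Replicate 3 was the lowest library of its group for both siRNAs in control glucose.

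GSTA4 had 34.5, 29 and 31.4 CPM with siGlut1 in high glucose, against 33.9 and 31.5 CPM with non-silencing siRNA, and 35.3, 34.3 and 31.8 CPM with siGlut1 in control glucose, against 33.0, 35.8 and 32.6 CPM. Its averaged log2 fold change was -0.02 (95% interval -0.160 to 0.114, adjusted p = 0.843), and in each medium the groups overlapped. Summed over the 10 members, CPM was 859.6, 849.7 and 850.6 CPM with siGlut1 in high glucose, against 966.8 and 922.6 CPM with non-silencing siRNA, and 949.4, 966.4 and 899.8 CPM with siGlut1 in control glucose, against 959.0, 981.2 and 919.4 CPM.

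**Figure D3:**
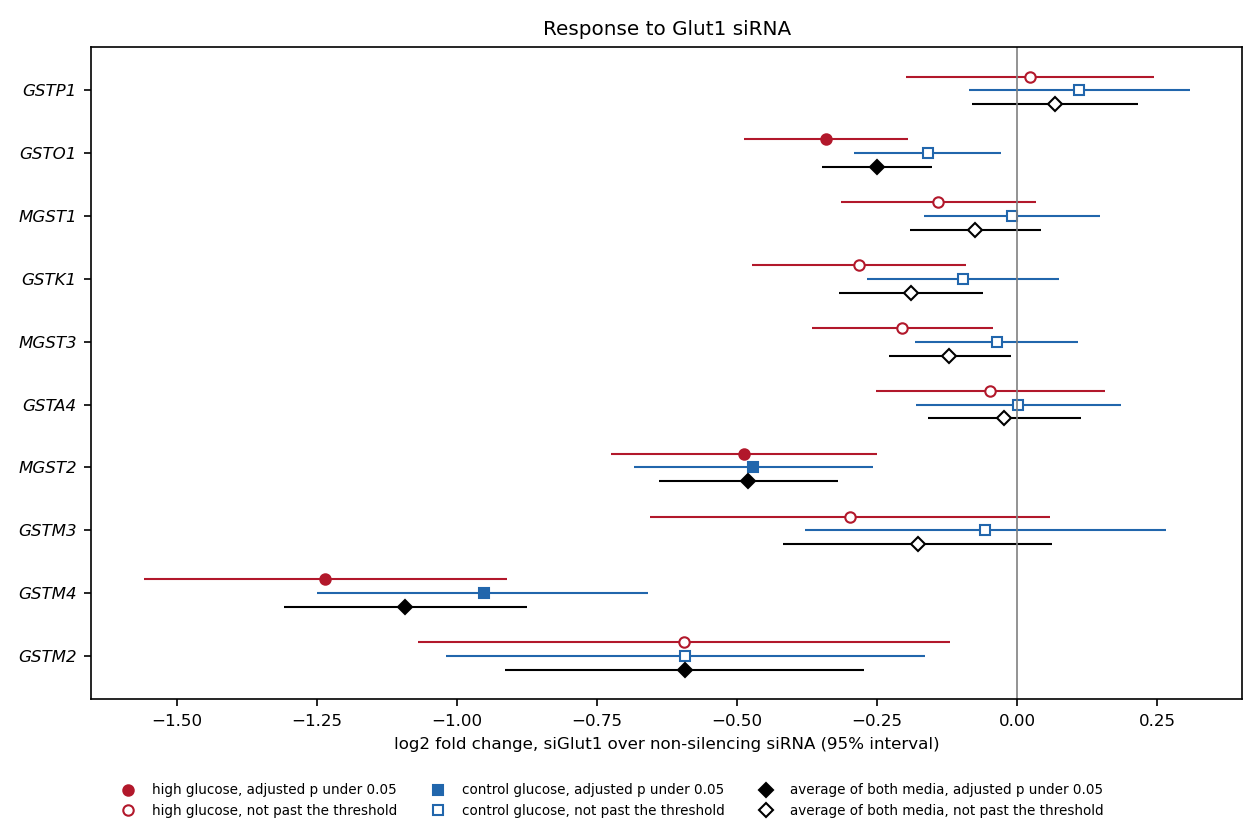
Log2 fold change of each member, siGlut1 over non-silencing siRNA, in high glucose, in control glucose and averaged, with 95% intervals from the quasi-likelihood fit and filled symbols for an adjusted p under 0.05. GSTM4 lies farthest to the left in all 3 comparisons, at -1.24, -0.95 and -1.09, and GSTP1 lies at or above 0.

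The second question was whether glucose changed these genes. With siGlut1, high glucose against control glucose called 0 of 10 members, where 0.014% of all genes (2 genes) were called, 2175 had an unadjusted p under 0.05 and DESeq2 called 383 genes. With non-silencing siRNA it called 0 of 10 members, where 0% of all genes were called, 773 had an unadjusted p under 0.05 and DESeq2 called 30.

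The lowest value with siGlut1 was that of GSTM4, at -0.51 ± 0.137 (adjusted p = 0.169), which had 1.79, 2.03 and 2.22 CPM in high glucose, against 2.53, 2.98 and 3.13 CPM in control glucose, without overlap. GSTK1 had -0.23 (adjusted p = 0.223), MGST3 -0.21 (adjusted p = 0.203) and GSTO1 -0.20 (adjusted p = 0.199). With non-silencing siRNA, GSTM4 had -0.23 (95% interval -0.551 to 0.0958, adjusted p = 0.944) and GSTO1 had -0.02 (-0.163 to 0.132, adjusted p = 0.994). MGST1 and GSTM3 were above 0 there, at 0.17 and 0.21 (adjusted p = 0.917 and 0.956). Without replicate 3 of both siRNAs in control glucose, 733 genes were called with siGlut1, among them 1 member, GSTK1 (-0.28, adjusted p = 0.0496).

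Whether the siGlut1 effect differed between media was tested as an interaction, high minus control. It called 0 of 10 members and 0% of all genes (395 genes had an unadjusted p under 0.05, and DESeq2 called 0), with an adjusted p of 0.999 for every member. The 10 values were all negative, with a median of -0.15 and a range of -0.28 to -0.001, beside a median of 0.00 for all genes. In the lists below, all 10 peroxidases and glutaredoxins and all 5 other glutathione enzymes were negative, as were 18 of 19 NRF2 targets. Elsewhere negative values were 8 of 13 supply genes, 7 of 13 conjugate genes and 4 of 10 NRF2 regulators. Of 5 other transferases and related genes tested, 2 were negative. For GSTO1, called in high glucose only, the difference was -0.18 (95% interval -0.378 to 0.0166), so a difference between media was not shown. All members share the same libraries, and the 2 non-silencing libraries of high glucose enter all 10 values. Over all genes, log2 fold change also ran with gene length in high glucose (Spearman's rho 0.238) and hardly in control glucose (-0.0601). The part of that trend in these 10 values was not tested.

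Genes around the transferases were followed in 7 lists of related function. These lists were chosen with earlier results of these data known, so their counts are not independent evidence of a direction. Over all genes tested, 1.65% were called lower and 2.47% higher in high glucose. The shares were 1.26% and 1.7% in control glucose, and 6.49% and 7.93% averaged over media. An unadjusted p under 0.05 was held by 20.8% of all genes tested in high glucose and 17.4% in control glucose. DESeq2 called 1259 genes over the whole table in high glucose and 1002 in control glucose. Glutathione itself is made from cysteine by GCLC, GCLM and GSS and kept reduced by GSR with NADPH from the pentose phosphate pathway. Of the 13 supply genes reported here, edgeR called 0 in either medium, 3 had an unadjusted p under 0.05 in each, and DESeq2 called 2 in high glucose and 1 in control glucose. Averaged over media edgeR called 3 lower, named after their values were seen, GSS (-0.16, adjusted p = 0.0313), GSR (-0.19, adjusted p = 0.0359) and OPLAH, which recycles oxoproline (-1.25, adjusted p = 0.0174), and 0 higher. The list's median was -0.07 in high glucose and -0.15 in control glucose.

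Among other transferases and related genes, 5 of 11 were tested, GSTM5, GSTO2, GSTZ1, GSTCD and ALOX5AP. GSTA1, GSTA2 and GSTA3 were at 0 in every library, and HPGDS, LTC4S and PTGES reached at most 0.0816 CPM. GSTZ1, the zeta-class enzyme of tyrosine breakdown, was called lower in high glucose, with 7.13 to 8.01 CPM with siGlut1 against 10.5 to 10.7 CPM with non-silencing siRNA (-0.46 ± 0.109, adjusted p = 0.0393). The list had no call in control glucose and averaged over media only that of GSTZ1 (adjusted p = 0.022). Of 10 peroxidases and glutaredoxins, 1 was called lower in high glucose, GLRX, which removes glutathione from proteins (-0.34 ± 0.0825, adjusted p = 0.0437), and 0 in control glucose, with GLRX alone called averaged over media (adjusted p = 0.0455). The high-glucose call of GSTZ1 held in 11 of 22 alternatives and that of GLRX in 10 of 22. Both were lost with the replicate block (adjusted p = 0.0506 for GSTZ1 and 0.0735 for GLRX). Both were also lost with the length trend removed (adjusted p = 0.0799 and 0.11).

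Of 5 other enzymes that use glutathione, GLO1 was called lower in both media. GLO1 detoxifies methylglyoxal, a by-product of glycolysis, and had 170 to 187 CPM with siGlut1 in high glucose, against 261 CPM in both non-silencing libraries. In control glucose it had 170 to 178 CPM with siGlut1, against 226 to 250 CPM with non-silencing siRNA. The log2 fold changes were -0.54 ± 0.0700 (adjusted p = 0.00412) and -0.46 ± 0.0634 (adjusted p = 0.00647), and the groups did not overlap in either medium.

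Conjugates leave the cell through ABCC pumps and are trimmed by peptidases. Of the 13 genes for these steps reported here, 1 was called lower and 2 higher in high glucose. The pump ABCC3 was lower (-1.43 ± 0.312, adjusted p = 0.0302), with 1.06 to 1.21 CPM with siGlut1 against 2.75 to 3.36 CPM with non-silencing siRNA. The peptidase ANPEP and the pump ABCC5 were higher, both by 0.38 (adjusted p = 0.0329 and 0.0435). These high-glucose calls held in 17 of 22 alternatives for ABCC3, 16 for ANPEP and 11 for ABCC5. With the length trend removed, ABCC5 had 0.28 (adjusted p = 0.174). In control glucose edgeR called 0 of the 13. An unadjusted p under 0.05 was held by 4, against 17.4% of all genes tested. DESeq2 called 2 there, against 1002 genes over the whole table. Averaged over media 3 were called lower, ABCC3, GGT5 and GGT7, and 3 higher, ANPEP, ABCC5 and ABCC1. Of these, GGT5, GGT7 and ABCC1 were named after their values were seen. Of all genes tested, 6.49% were called lower and 7.93% higher averaged over media.

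Of 10 genes for NRF2 and its regulators, 1 was called in high glucose, BACH1, a repressor that competes with NRF2 at antioxidant response elements. It had 24.4 to 26.1 CPM with siGlut1, against 18.6 to 20.3 CPM with non-silencing siRNA (0.37 ± 0.0852, adjusted p = 0.0347). In control glucose it had 0.10 (adjusted p = 0.563). The high-glucose call of BACH1 held in 12 of 22 alternatives. It was lost with no filter on low counts (adjusted p = 0.0527) and with the length trend removed (adjusted p = 0.0737). Leaving out any 1 siGlut1 library of high glucose also ended it (adjusted p = 0.0793 to 0.105). So did leaving out non-silencing replicate 1, siGlut1 replicate 1 or siGlut1 replicate 2 of control glucose (adjusted p = 0.0522 to 0.0601). The call was also lost without either non-silencing library of high glucose, which leaves 1. The log2 fold change was then 0.45 without replicate 1 and 0.31 without replicate 3. Averaged over media BACH1 was called higher (adjusted p = 0.0188) and MAFF, named after its values were seen, lower (-0.19, adjusted p = 0.0421). NFE2L2, which encodes NRF2, was not called in either medium (-0.08 and -0.07, adjusted p = 0.568 in high and 0.629 in control glucose).

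Of 19 known NRF2 targets outside the glutathione system, 5 were called lower in high glucose, against 1.65% of all genes tested. In control glucose 4 were called lower, against 1.26%, and averaged over media 8, against 6.49%. In these 3 comparisons 0 were called higher. The list's median was -0.24, -0.16 and -0.20 in that order, beside 0, -0.007 and -0.004 for all genes tested. Of the list's values, 19, 16 and 18 were negative. NQO1, a quinone reductase, had 221 to 238 CPM with siGlut1 in high glucose, against 355 to 385 CPM with non-silencing siRNA (-0.67 ± 0.0697, adjusted p = 0.00163), and -0.46 ± 0.0632 in control glucose (adjusted p = 0.00639).

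PIR, an iron-binding nuclear protein, had -1.02 ± 0.133 in high glucose (adjusted p = 0.00412) and -0.78 ± 0.122 in control glucose (adjusted p = 0.00967). TXNRD1, thioredoxin reductase, had -0.45 and -0.40 (adjusted p = 0.0294 and 0.0374), and TKT, a pentose phosphate enzyme, -0.38 in high glucose (adjusted p = 0.0352). The remaining gene called in both media, SRXN1, sulfiredoxin, was named after its values were seen and had -0.34 and -0.33 (adjusted p = 0.0387 and 0.037). Of the 4 transferases with a motif in a promoter window, GSTO1 was called lower averaged over media and GSTP1, GSTA4 and MGST1 were not. GSTM4 and GSTM2, also called lower in that comparison, had none in theirs. For MGST2, called lower there too, no window was found. A link between motif and call was not tested. Of the 11 list genes named here (SRXN1 aside) and called in high glucose, 9 lost the call without non-silencing replicate 1 and 10 without replicate 3, where NQO1 alone kept it, and 8 lost it without any 1 of the siGlut1 libraries. In control glucose the count of NRF2 targets called was 2 to 4 with single libraries left out and 1 with only the groups compared. There NQO1 kept its call in all 22 alternatives, PIR in 21 and TXNRD1 in 12, the last with an adjusted p of 0.119 without non-silencing replicate 1 and also 0.119 without siGlut1 replicate 2.

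**Figure D4:**
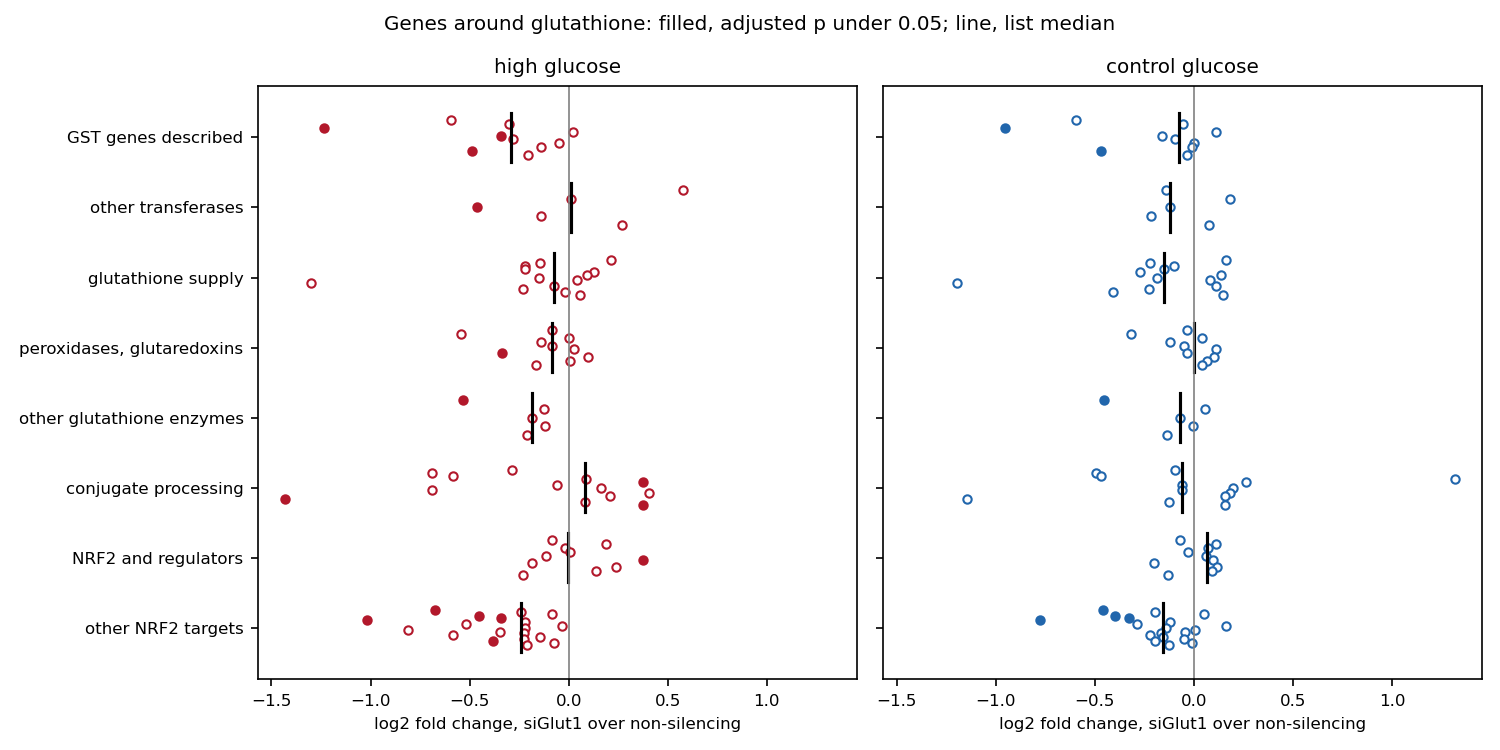
Log2 fold change, siGlut1 over non-silencing siRNA, of each tested gene in the members and the 7 lists, with high glucose on the left, filled points for an adjusted p under 0.05 and a vertical line at each list's median. The medians of the 19 other NRF2 targets were -0.24 and -0.16, and those of the 13 supply genes were -0.07 and -0.15.

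The genes whose profile over the 11 libraries was most like a called member's were found by the root mean square difference of centred log2 CPM among 11481 genes with a mean of at least 2 CPM. For GSTM4, whose own root mean square spread was 0.598, they were ASNS (0.157), which makes asparagine, XYLT2 (0.200) and PHLDA2 (0.217). For MGST2, with a spread of 0.282, they were RINL (0.0782), IFT57 (0.0814) and IFI27L2 (0.105). For GSTO1, with a spread of 0.150, they were RPL5 (0.0310), TRNAU1AP (0.0469) and MPV17 (0.0482), and for GSTM2, with a spread of 0.359, HLA-DPB1 (0.153), CCDC104 (0.156) and C3orf18 (0.157). These are ranks of likeness within the same libraries and no test of a link.

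Markers of other cell types moved with the siRNA in some lists. Summed RPKM of 6 pericyte markers was 214 to 255 with siGlut1 in high glucose, against 305 to 312 with non-silencing siRNA, and 190 to 200 with siGlut1 in control glucose, against 233 to 281. RGS5 carried that sum, while PDGFRB, CSPG4, KCNJ8 and DES stayed at or below 0.0602 RPKM. Summed RPKM of 4 neuron markers in high glucose was 41.6 to 56.3 with siGlut1, against 30.8 to 40.1 with non-silencing siRNA. In control glucose that sum was 57.9 to 65.8 with siGlut1, against 40.2 to 46.9. TUBB3, at 23.5 to 59 RPKM over the 11 libraries, carried most of it. SYT1 stood at 5.55 to 8.24 RPKM, SNAP25 at most at 0.194 and RBFOX3 at most at 0.0705. Of 4 epithelial markers the sum in high glucose was 146 to 166 with siGlut1, against 184 to 186 with non-silencing siRNA. With control glucose it was 151 to 168, against 164 to 176, where the groups overlapped. KRT18, at 141 to 179 RPKM, carried that sum, while KRT8 reached at most 7.23, EPCAM at most 0.35 and CDH1 was at 0. The part of these differences in the fall of GSTM4, MGST2 and GSTO1 was not tested.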

How the data were processed

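RNA of the cells was sequenced. The labels name a pair of library kits (TruSeq stranded mRNA, SMARTER) and do not tie them to libraries. Per the submitters' processing notes, the build was hg19 and DESeq2 was used. The aligner, counter, annotation and versions were not stated. Per the file headers, the table gives a count and an RPKM for each sample. The deposited counts are whole numbers with differing library totals. All are even in the 11 columns used, and what 1 count stands for is not stated. RPKM, a value per gene length scaled by the authors, served only for levels and markers. Deposited gene lengths served for the length alternative.

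Entries outside the Y chromosome were kept if their name occurred only once among such entries (23220). The filterByExpr step left 14319, and libraries were scaled by TMM (0.975 to 1.03). All 4 groups entered 1 quasi-likelihood fit without a replicate block (R 4.3.3, edgeR 4.0.16, 7 residual degrees of freedom, common dispersion 0.0161). F tests were two-sided, with Benjamini-Hochberg adjustment over all genes per comparison and a threshold of 0.05. The fit was tested on simulated data. A standard error is the log2 fold change over the square root of F. No column was without a sample in the labels (0). Alternatives were DESeq2 1.42.0 and its size factors, other filters, all 12 columns, counts divided by 2, only the groups compared, a length trend removed, the 3 mu-class genes summed and libraries left out.

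The members and lists were chosen with earlier results of these data known, and some genes of the pathways are not reported here. Named genes are all 10 members, SLC2A1, up to 4 called genes per list by smallest adjusted p, and the 3 genes most alike in profile to each member called on average over media. Low counts limit the precision of GSTM2 and GSTM4.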

Additional observations from a re-analysis of the deposited data

How the results depend on the processing

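Averaged over media, 3 to 5 members were called in every alternative, and GSTM4, GSTO1 and MGST2 were among them wherever they entered as entries of their own. In high glucose, 3 members were called, with 5 in all 12 columns, 1 with the length trend removed and 0 to 3 with single libraries left out. In control glucose, 2 were called, with 1 when only the groups compared were fitted, 1 with the mu-class genes summed and 1 to 2 with single libraries left out. Glucose with siGlut1 called 0, and 1 without both control-glucose replicates numbered 3. Leaving out 1 non-silencing library of high glucose leaves 1, assumed to vary like the other groups. Glucose with non-silencing siRNA and the interaction called 0 members throughout.

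The replicate block called 3 members in high glucose, 2 in control glucose and 5 averaged, adding GSTK1. Whether the numbers pair the libraries is unsettled, since not every pair passed 0.1: 9 of 15 same-number pairs had a correlation over 0.1 (-0.251 to 0.535), and 8 of 11 libraries correlated best with their own number. The block ended the high-glucose calls of GSTZ1 and GLRX.

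Values near 0 changed sign. GSTA4 in control glucose was -0.002 with DESeq2, -0.003 with its size factors, -0.004 with counts divided by 2 and 0.000 with the length trend removed, which also gave 0.037 in high glucose and 0.019 averaged. MGST3 in control glucose was 0.019 without both replicates numbered 3. With single libraries left out, control-glucose values ran from -0.027 to 0.049 for GSTA4, -0.242 to 0.071 for GSTM3, -0.057 to 0.026 for MGST1, -0.072 to 0.007 for MGST3 and -0.089 to 0.021 for GLRX. High-glucose values ran from -0.119 to 0.015 for GSTA4 and -0.025 to 0.082 for GSTP1, and averaged values of GSTA4 from -0.059 to 0.008. The cause of these changes was not tested.

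Over the whole table, 590 genes were called in high glucose, against 1259 with DESeq2, 1156 with only the groups compared, 1809 in 12 columns, 1672 without both control replicates numbered 3, and 6 to 1078 with single libraries left out. In control glucose 424 were called, against 1002, 70, 824, 247 and 135 to 343 in that order. Averaged, 2066 were called, against 3181 in 12 columns and 1001 to 2498 with single libraries left out. Glucose with siGlut1 called 2, against 383, 0, 37, 733 and 0 to 17, and with non-silencing siRNA 0, against 30, 0, 11, 48 and 0 to 2.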
